A study of Rattus norvegicus with 8 samples.

Results

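The P2 purinergic receptors are the cell surface receptors for extracellular ATP and related nucleotides. They were represented by 9 RefSeq records, chosen by identifier out of the 18314 records quantified in each rat: P2rx1 (NM_012997), P2rx2 (NM_053656), P2rx3 (NM_031075), P2rx4 (NM_031594), P2rx5 (NM_080780), P2rx6 (NM_012721), P2rx7 (NM_019256), P2ry1 (NM_012800) and P2ry2 (NM_017255). Gene names came from a RefSeq gene table of the GRCr8 assembly, whereas the reads had been mapped to transcripts of rn6. RNA was taken from the right stellate ganglion of 4 spontaneously hypertensive rats (SHR) and 4 Wistar rats, all male and 16 weeks of age, with 1 ganglion and 1 library per rat, to ask which transcripts differ in a ganglion whose sympathetic output is raised. SHR is an inbred line with hypertension and the controls were normotensive Wistar rats, so that strain background and blood pressure cannot be told apart. The ganglia were desheathed but otherwise whole, and a difference in the number of cells of a type and a difference in RNA per cell cannot be told apart either. Libraries held between 25820299 (SHR replicate 2) and 35509074 (Wistar replicate 1) estimated counts.

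P2X receptors are cation channels opened by ATP and built from subunits in groups, as homomers or as mixed channels, whereas P2Y receptors act through G proteins. Sympathetic nerve terminals release ATP together with noradrenaline, and P2X channels also carry fast excitation onto autonomic and sensory neurons. P2X2 and P2X3 are the classical neuronal subunits, P2X4 and P2X7 are well known from macrophages and microglia, and P2X6 assembles poorly alone and is mostly found in channels with other subunits.

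Of the 9 receptor records, that of P2rx3 was higher and that of P2rx6 lower in SHR, and P2rx4 was higher in all SHR than in 3 of the 4 Wistar rats without passing the test. The other 5 tested receptors did not pass, and P2rx5 was too scarce to be tested. The test was edgeR's quasi-likelihood test over 13659 records with Benjamini-Hochberg adjustment, and a record passed when its adjusted p was under 0.05. Thus 2 of the 8 tested receptor records passed, 1 in each direction, beside 2.85% of all tested records (1.16% higher and 1.69% lower in SHR). The P2rx3 call rests on 1 of the 3 records of that gene, among which reads were divided by estimation, and with records summed to genes P2rx6 alone passed by edgeR. The strains did not overlap in 2 of the 8, beside 10.6% of all tested records, whereas P2rx3 overlapped when its records were summed. The median log2 fold change (SHR over Wistar) was 0.10 for the 8 receptors and 0.01 for all tested records.

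**Figure D1:**
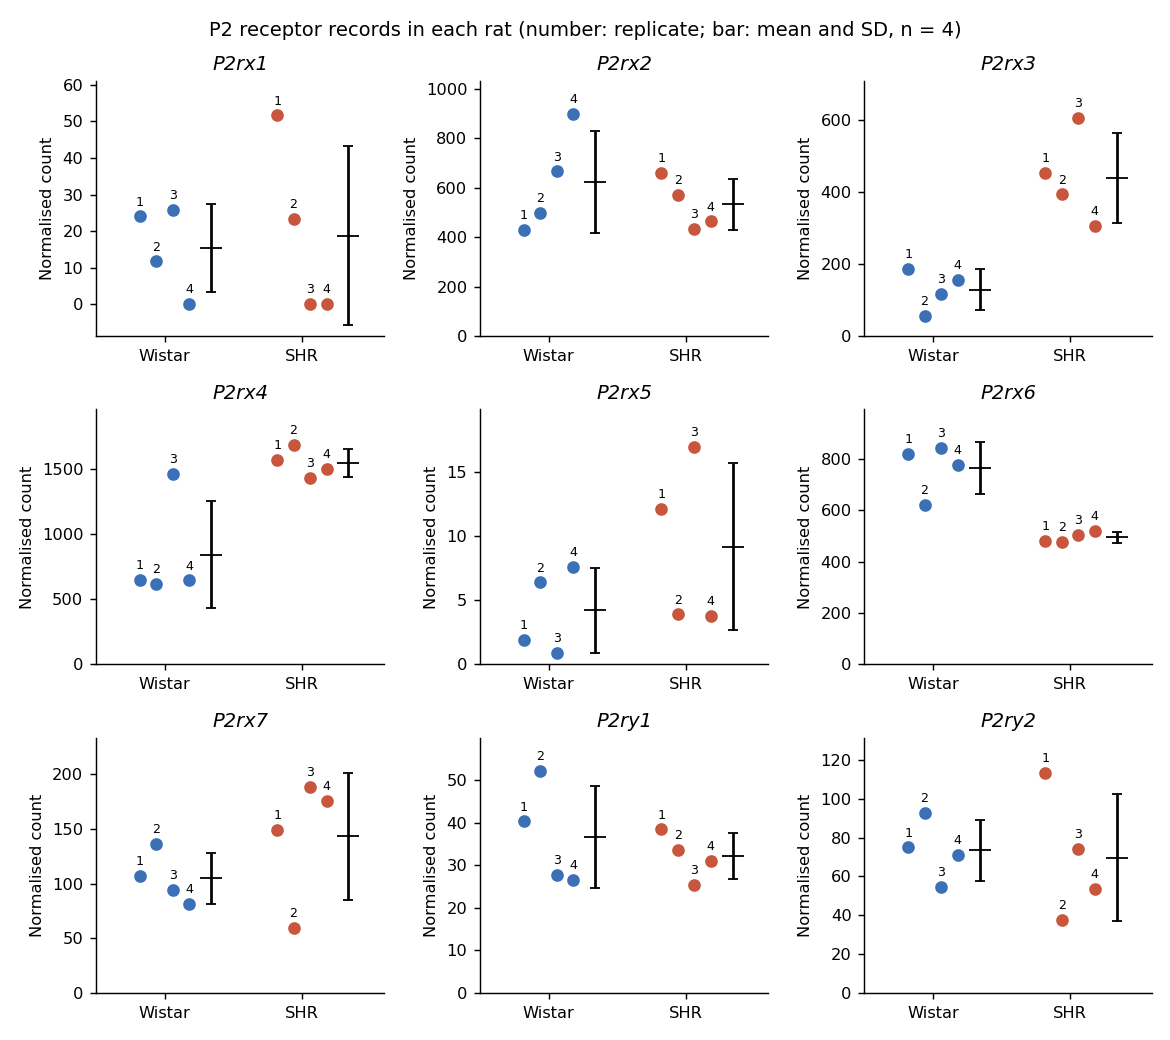
Normalised count (vertical axis, read counts scaled to a common library size) of each P2 receptor record in each rat, with the replicate number above the point and the mean and SD of 4 rats beside it. Wistar and SHR separate for P2rx3 and P2rx6, and Wistar replicate 3 sits at 1464 for P2rx4 among the SHR values.

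P2rx3 encodes the P2X3 subunit, which forms fast desensitising channels on sensory neurons and assembles with P2X2. The normalised count (the read count scaled to a common library size) of its record NM_031075 was 187, 55.4, 116 and 157 in Wistar replicates 1 to 4 and 453, 393, 605 and 306 in SHR replicates 1 to 4. Every SHR value lay above every Wistar value. The Wistar mean of 129 ± 57.0 and the SHR mean of 439 ± 126 (SD over 4 rats) gave a 3.40-fold difference (log2 fold change 1.77, SE 0.347, 95% interval from 0.99 to 2.54, edgeR adjusted p = 0.0243). The adjusted p rose to 0.0543, 0.0591, 0.0843 and 0.0557 without SHR replicate 2, SHR replicate 3, Wistar replicate 3 and Wistar replicate 4, and it stayed under 0.05 in the 4 other fits that left out a rat.

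The P2rx3 gene has 3 records in the quantified set, and reads that fit more than 1 of them were divided by estimation, so that the count of NM_031075 was not a whole number in any of the 8 rats (tolerance 0.01). The records are 3692 (NM_001270621), 3764 (NM_031075) and 3786 (NR_073054, a non-coding record) bases long. NM_031075 received 49.0% of the counts of the 3 records in Wistar replicate 1 (95% Wilson interval, counting error only, from 44.2% to 54.0%), 14.03% in replicate 2 (10.8% to 17.8%), 33.3% in replicate 3 (28.8% to 38.3%) and 41.0% in replicate 4 (36.3% to 45.8%). In SHR replicates 1 to 4 it received 70.6% (67.0% to 74.0%), 100% (98.7% to 100%), 97.5% (96.1% to 98.5%) and 53.6% (49.6% to 57.5%). The share of NM_031075 was therefore higher in all 4 SHR than in any Wistar rat, although the intervals of SHR replicate 4 and Wistar replicate 1 overlapped.

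The non-coding record NR_073054 moved the other way. Its normalised counts were 179.7, 257, 233 and 226 in Wistar replicates 1 to 4, whereas SHR replicates 1 and 2 had none, SHR replicate 3 had 15.1 and SHR replicate 4 had 184. The values of SHR replicate 4 and Wistar replicate 1 cross, and the record did not pass the test (log2 fold change -2.14, SE 1.13, edgeR adjusted p = 0.368). NM_001270621 was listed at or near 0 in 2 rats of each strain and reached 84.1 in Wistar replicate 2 and 188 in SHR replicate 1, with no call (edgeR adjusted p = 0.684).

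**Figure D2:**
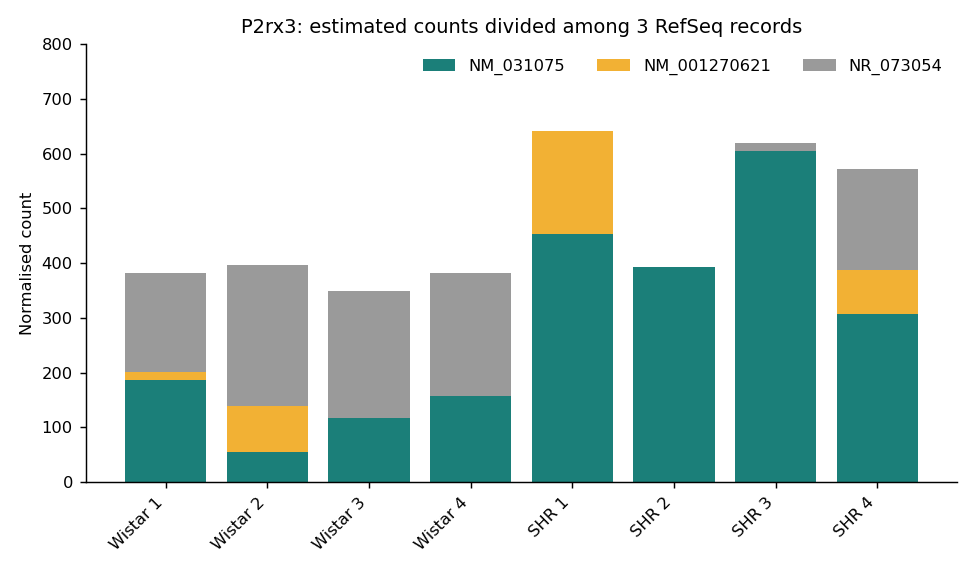
Normalised count of P2rx3 in each rat (horizontal axis), stacked by the RefSeq record that received it. The whole bars differ less between the strains than the NM_031075 segments do, and NR_073054 takes a large segment in all Wistar rats and in SHR replicate 4.

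Summed over the 3 records, P2rx3 had normalised counts of 381, 396, 349 and 383 in Wistar replicates 1 to 4 and 641, 393, 620.0 and 571 in SHR replicates 1 to 4. SHR replicate 2 lay within the Wistar range and the other 3 SHR lay above it. The means were 377 ± 19.9 and 556 ± 113 (SD over 4 rats each). The log2 fold change of the gene was 0.57 (SE 0.161), with an edgeR adjusted p of 0.0999, and so the gene did not pass where 2.95% of all genes did. With DESeq2 and an offset for effective length on the same sums, an alternative chosen after seeing the data, it passed (log2 fold change 0.56, adjusted p = 0.0294, where 5.71% of the genes with an adjusted p passed). The record and the gene thus differed in the same direction but by different amounts.

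RefSeq lists 2 start sites for P2rx3, which are shown because the 3 records of this gene received such different shares of reads. Which of the records begins at which start site was not examined. Each stretch runs from 250 bases before to 50 bases after the start, 5′ to 3′, in the GRCr8 assembly. Capitals mark the GC box GGGCGG and the cAMP response element core TGACG, searched on both strands together with the TATA box TATAAA and the AP-1 site TGANTCA. Of 33469 rat promoters of this length, 33.1% hold the GC box, 21.2% the cAMP response element core, 14.2% the TATA box and 7.33% the AP-1 site. At chr3:90531266-90531565, minus strand, 60% of the bases were G or C and none of the 4 motifs was found. At chr3:90529260-90529559, minus strand, 55% were G or C, and 1 GC box and 1 cAMP response element core were found, both on the opposite strand and hence printed as reverse complements.
P2rx3 start site 1: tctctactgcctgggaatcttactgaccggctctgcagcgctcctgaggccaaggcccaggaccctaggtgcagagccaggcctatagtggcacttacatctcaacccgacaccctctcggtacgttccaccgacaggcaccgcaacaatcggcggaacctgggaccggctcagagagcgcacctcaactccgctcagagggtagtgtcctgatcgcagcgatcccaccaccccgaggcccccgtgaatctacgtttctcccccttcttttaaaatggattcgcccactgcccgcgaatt
P2rx3 start site 2: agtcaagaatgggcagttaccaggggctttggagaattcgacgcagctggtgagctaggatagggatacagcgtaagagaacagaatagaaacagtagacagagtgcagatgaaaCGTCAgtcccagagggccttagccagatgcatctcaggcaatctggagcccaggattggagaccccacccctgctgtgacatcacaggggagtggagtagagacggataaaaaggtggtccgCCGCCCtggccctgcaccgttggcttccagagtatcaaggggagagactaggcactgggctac

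P2rx2 encodes the slowly desensitising neuronal partner of P2X3. Its normalised counts were 429, 498, 665 and 897 in Wistar replicates 1 to 4 and 661, 572, 435 and 463 in SHR replicates 1 to 4. The SHR values all lay within the Wistar range. The log2 fold change was -0.23 (SE 0.233, 95% interval from -0.74 to 0.29, edgeR adjusted p = 0.661). The ratio of P2rx2 to P2rx3 in TPM (transcript abundance per length, scaled to the same total in every library), with the P2rx3 records summed, was 2.34, 2.61, 3.95 and 4.84 in Wistar replicates 1 to 4. It was 2.11, 3.02, 1.44 and 1.68 in SHR replicates 1 to 4. SHR replicate 2 overlapped the Wistar rats in this ratio and the other 3 SHR lay below all of them. The P2rx3 sum in the ratio includes the non-coding record NR_073054, at 1.70 to 2.65 TPM in Wistar and 0 to 1.82 in SHR. A ratio without that record was not computed. The ratio of P2rx2 to P2rx3 was not among the planned comparisons and rests on the same counts as the tests.

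P2rx6 encodes the P2X6 subunit, known mainly as a partner of P2X2 and P2X4. Its normalised counts were 821, 621, 845 and 779 in Wistar replicates 1 to 4 and 481, 476, 506 and 521 in SHR replicates 1 to 4. All SHR values lay below all Wistar values, and they were close together. The Wistar mean was 766 ± 101 and the SHR mean 496 ± 21.1 (SD over 4 rats), so that Wistar was 1.55-fold higher (log2 fold change -0.63, SE 0.122, 95% interval from -0.90 to -0.36, edgeR adjusted p = 0.0234). The direction was kept in each of the 8 fits that left out a rat, but the adjusted p was under 0.05 in only 2 of them, without SHR replicate 1 (0.0457) and without Wistar replicate 2 (0.0170), and reached 0.0856 without Wistar replicate 3. The quantified set holds 1 P2rx6 record, but its counts were not whole in any rat, as happens when reads are shared with another record. With the replicate number as a block in the edgeR fit, 0 of the 8 receptors passed, beside 0.966% of records.

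P2rx4 encodes the P2X4 subunit, a channel with high calcium permeability that is stored largely in lysosomes. Its normalised counts were 649, 619, 1464 and 645 in Wistar replicates 1 to 4 and 1573, 1686, 1435 and 1501 in SHR replicates 1 to 4. Wistar replicates 1, 2 and 4 lay within a narrow band, and Wistar replicate 3 lay inside the SHR range. With all 8 rats the means were 844 ± 413 and 1549 ± 107 (SD over 4 rats each), and the 1.83-fold difference did not pass the test (log2 fold change 0.87, SE 0.263, 95% interval from 0.29 to 1.46, edgeR adjusted p = 0.127). Without Wistar replicate 3 the log2 fold change was 1.29 (SE 0.108, edgeR adjusted p = 0.00064), where 1.75% of the records passed. That fit leaves out the rat whose P2rx4 value stood apart, so its small adjusted p is no further support. In the other fits that left out a rat, the edgeR adjusted p of P2rx4 lay between 0.140 and 0.296. With all 8 rats DESeq2 called P2rx4, with an adjusted p of 0.0210, and of 0.0209 with an offset for effective length (5.23% and 6.26% of the records with an adjusted p passed).

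Of the 243 records that passed without Wistar replicate 3, this rat lay within the SHR range in 4, P2rx4 included, or 1.65%. The same share, of records in which the left-out rat lay within the range of the other strain, varied between rats. It was 7.38%, 0.844% and 0.42% for Wistar replicates 1, 2 and 4 and 17.4%, 5.43%, 9.43% and 1.61% for SHR replicates 1 to 4. P2rx7, the gene next to P2rx4 in the GRCr8 gene table, was at 94.3 in Wistar replicate 3, between the other Wistar rats. Camkk2, the tested gene on the other side, was at 65.6 in Wistar replicate 3, below the other 3 Wistar rats (110, 151 and 261) and below all SHR (101 to 172). Neither neighbour passed the test between the strains (edgeR adjusted p = 0.516 for P2rx7 and 0.783 for Camkk2). Their values therefore cannot place Wistar replicate 3 with either strain. The counts of P2rx4 were whole numbers in all rats. The cause of the P2rx4 value in Wistar replicate 3 was not tested.

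**Figure D3:**
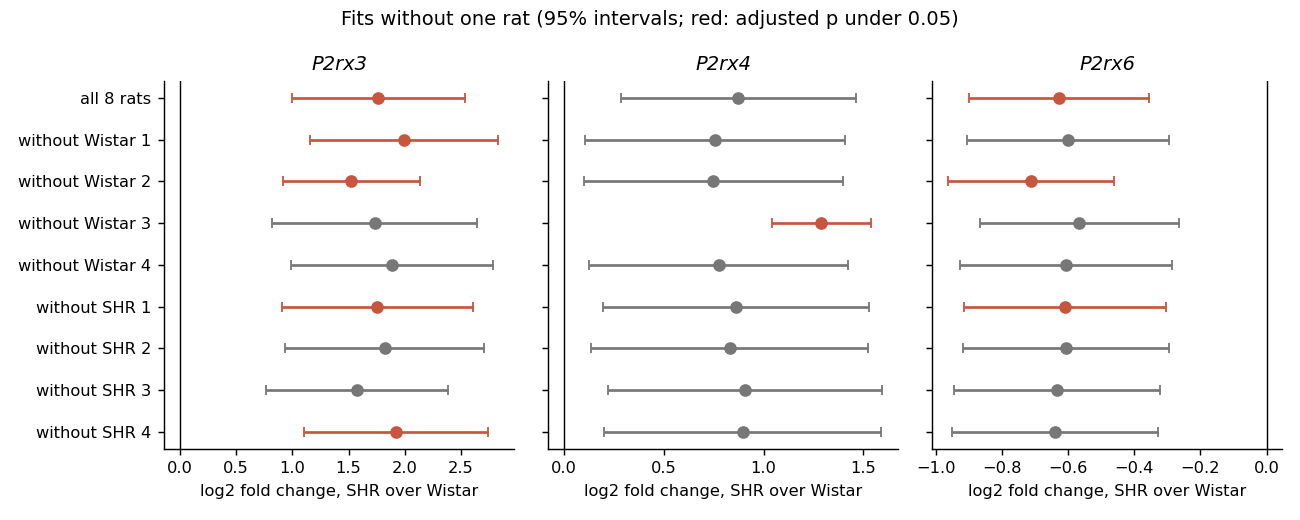
Log2 fold change (SHR over Wistar, horizontal axis) with its 95% interval for P2rx3, P2rx4 and P2rx6 in the fit of all 8 rats and in the fits that each leave out 1 rat. Red points have an edgeR adjusted p under 0.05, and the P2rx4 interval narrows and turns red when Wistar replicate 3 is left out.

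The promoters of P2rx4 and P2rx6 are shown because the ratio of these subunits, a description from the same counts, separated the strains, as given with the levels. The P2rx4 stretch at chr12:39523040-39523339 (GRCr8, minus strand) was 66.7% G or C, beside a median of 51.7% over all promoters, and holds 1 cAMP response element core on the opposite strand, in capitals. The P2rx6 stretch at chr11:96954154-96954453 (GRCr8, minus strand) was 52.3% G or C and holds none of the 4 motifs.
P2rx4: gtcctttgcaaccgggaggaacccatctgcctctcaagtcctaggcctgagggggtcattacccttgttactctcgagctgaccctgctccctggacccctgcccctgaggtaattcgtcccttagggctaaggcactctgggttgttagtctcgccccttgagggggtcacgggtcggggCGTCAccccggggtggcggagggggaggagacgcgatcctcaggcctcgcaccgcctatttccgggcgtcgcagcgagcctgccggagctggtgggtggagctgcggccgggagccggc
P2rx6: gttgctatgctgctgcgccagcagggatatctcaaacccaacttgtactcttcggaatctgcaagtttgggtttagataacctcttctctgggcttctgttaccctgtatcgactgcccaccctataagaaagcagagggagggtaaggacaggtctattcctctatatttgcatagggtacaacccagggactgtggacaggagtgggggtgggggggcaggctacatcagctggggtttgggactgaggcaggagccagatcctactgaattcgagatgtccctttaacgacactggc

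P2rx7 encodes a channel that needs high ATP and triggers interleukin release from macrophages. Its normalised counts were 107, 136, 94.3 and 81.7 in Wistar replicates 1 to 4 and 149, 59.7, 188 and 176 in SHR replicates 1 to 4. SHR replicates 1, 3 and 4 were above all Wistar rats and SHR replicate 2 was below them. The log2 fold change was 0.46 (SE 0.333, 95% interval from -0.29 to 1.20, edgeR adjusted p = 0.516).

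P2rx1, the subunit of smooth muscle and platelets, was near the limit of detection. Its record NM_012997 had normalised counts of 24.0, 11.7, 25.9 and 0 in Wistar replicates 1 to 4 and 51.6, 23.4, 0 and 0 in SHR replicates 1 to 4. In Wistar replicate 4, SHR replicate 3 and SHR replicate 4, where this record was at 0, all P2rx1 counts were assigned to the other records of the gene. The estimated counts of the gene there were 11, 14 and 20. The wide interval of the record (log2 fold change 0.27, 95% interval from -2.62 to 3.15, edgeR adjusted p = 0.941) includes large differences in either direction. Over all 3 P2rx1 records no rat was at 0, with 10.4 to 25.9 in Wistar and 13.2 to 51.6 in SHR. The summed gene did not pass either (log2 fold change 0.64, 95% interval from -0.49 to 1.76, edgeR adjusted p = 0.540). P2rx5 was the scarcest receptor, with normalised counts of 1.92, 6.39, 0.92 and 7.60 in Wistar replicates 1 to 4 and 12.1, 3.89, 16.9 and 3.76 in SHR replicates 1 to 4. It was left out by the filter on low counts, and the strains overlapped.

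Both P2Y receptors couple to Gq and phospholipase C, P2Y1 for ADP and P2Y2 for ATP and UTP. P2ry1 had normalised counts of 40.4, 52.2, 27.7 and 26.6 in Wistar replicates 1 to 4 and 38.5, 33.7, 25.4 and 31.0 in SHR replicates 1 to 4. The strains overlapped (log2 fold change -0.19, 95% interval from -0.93 to 0.55, edgeR adjusted p = 0.813). P2ry2 had 74.9, 92.6, 54.5 and 71.2 in Wistar replicates 1 to 4 and 113, 37.6, 74.3 and 53.6 in SHR replicates 1 to 4. The SHR values spanned the whole Wistar range (log2 fold change -0.07, 95% interval from -0.83 to 0.69, edgeR adjusted p = 0.943). Both intervals include differences in either direction, and the size of difference that 4 rats per strain could detect was not tested.

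**Figure D4:**
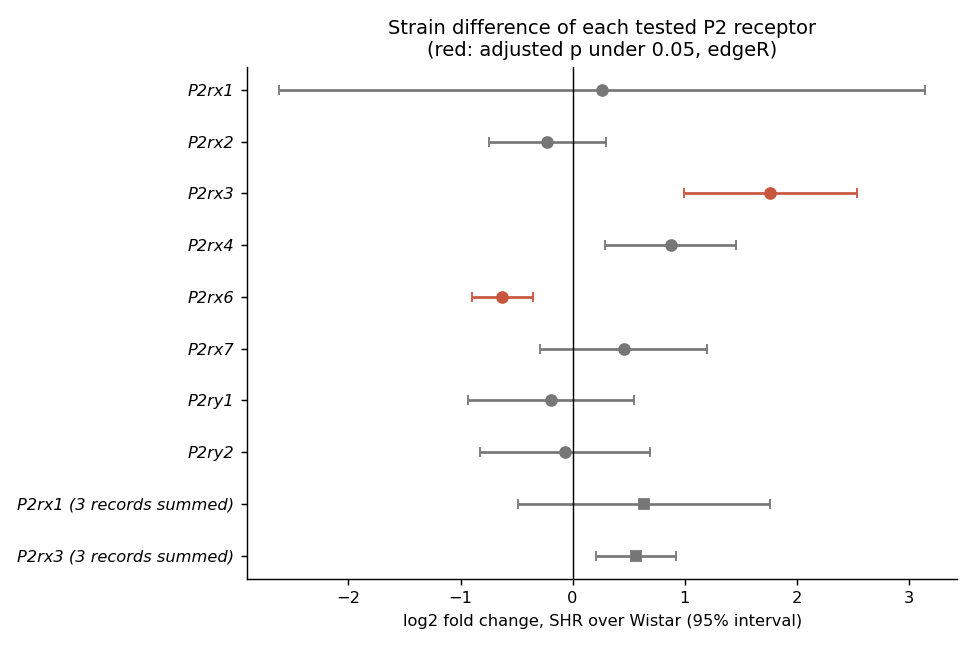
Log2 fold change (SHR over Wistar, horizontal axis) with its 95% interval from edgeR for each tested P2 receptor record (circles) and for P2rx1 and P2rx3 with their 3 records summed (squares). Only the P2rx3 and P2rx6 records have an adjusted p under 0.05, and the P2rx3 gene sum lies at 0.57 against 1.77 for its record.

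Levels were compared between receptors on the TPM scale, with the records of P2rx1 and P2rx3 summed. P2rx4 led with 23.3 ± 9.11 TPM (SD, n = 8), followed by P2rx2 with 12.1 ± 3.34 and P2rx6 with 10.1 ± 2.62. P2rx3 followed with 4.75 ± 1.36 TPM, P2ry2 with 1.32 ± 0.435, P2rx7 with 1.28 ± 0.515, P2ry1 with 0.526 ± 0.135, P2rx1 with 0.342 ± 0.185 and P2rx5 with 0.107 ± 0.0924. P2rx6 was above P2rx3, P2rx3 above P2ry2 and P2rx7 above P2ry1 in all 8 rats, whereas P2ry2 was above P2rx7 in 6 of 8 rats, so that this pair was not separated. The order of P2rx3 and P2ry2 depends on counting the non-coding P2rx3 record NR_073054. In Wistar replicate 2, NM_031075 was at 0.580 and NM_001270621 at 0.896 TPM, beside 1.76 for P2ry2. P2rx4 was above P2rx2 in 7 of 8 rats, and in Wistar P2rx4 at 16.6 ± 8.63, P2rx2 at 13.1 ± 4.50 and P2rx6 at 12.3 ± 1.58 TPM (SD, n = 4) differed by less than their spread. In SHR P2rx4 at 29.9 ± 0.975, P2rx2 at 11.0 ± 1.65 and P2rx6 at 7.88 ± 0.821 TPM kept this order in every rat. Among all 18314 records, the mean TPM of P2rx4 was higher than that of 75.1% of records in Wistar and 82.5% in SHR, and P2rx5 was higher than 15.2% and 18.1%.

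The shares of P2rx4 and P2rx6 in the P2X family separated the strains, whereas the sum of the family overlapped. The TPM of the 7 P2X genes added up to 37.9, 39.2, 63.2 and 48.7 in Wistar replicates 1 to 4 and to 58.7, 53.6, 59.5 and 54.4 in SHR replicates 1 to 4. P2rx4 took 31.6%, 31.6%, 46.8% and 25.7% of this sum in Wistar replicates 1 to 4 and 50.0%, 57.1%, 51.9% and 53.1% in SHR replicates 1 to 4. Wistar replicate 3 was nearest to SHR but below all of them.

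P2rx6 took 32.7%, 26.0%, 22.2% and 25.5% of the sum in Wistar and 12.5%, 13.2%, 15.0% and 15.0% in SHR. The share of P2rx6 was thus lower in all 4 SHR. The shares of P2rx2, 27.8% ± 7.47 for Wistar and 19.5% ± 2.70 for SHR, and of P2rx3, 8.47% ± 2.07 and 9.97% ± 2.12 (SD over 4 rats), overlapped. The P2rx3 share includes the non-coding record NR_073054, at 1.70 to 2.65 TPM in Wistar and 0 to 1.82 in SHR. The P2rx3 record NM_031075 alone was at 0.580 to 1.79 TPM in Wistar and 3.05 to 6.82 in SHR. Shares without the non-coding record were not computed. The ratio of P2rx4 to P2rx6 in TPM was 0.964, 1.22, 2.11 and 1.01 in Wistar replicates 1 to 4 and 3.99, 4.32, 3.47 and 3.53 in SHR replicates 1 to 4, with no overlap. The TPM of P2rx4 itself overlapped, at 29.5 in Wistar replicate 3 and 28.85 to 30.9 in SHR. These shares and ratios rest on the same counts as the tests above and are given as a description. All shares of a rat have the same sum below them, so that a higher level of P2rx4 lowers the share of P2rx6. The ratio of P2rx4 to P2rx6 was not among the planned comparisons. It sets a receptor with a higher mean in SHR over another with a lower mean, so its separation is no further support.

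**Figure D5:**
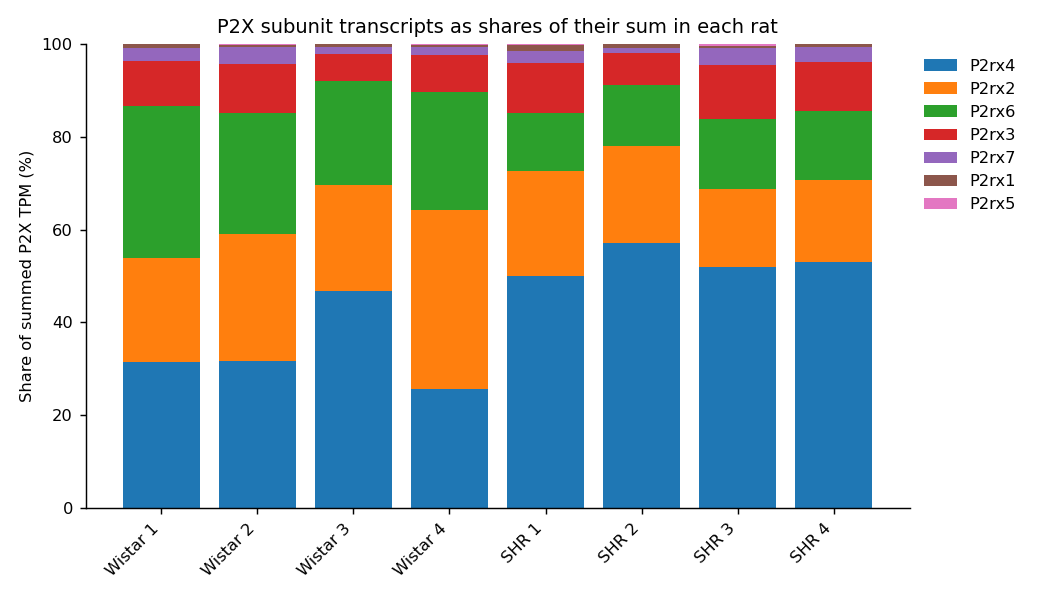
Share of each P2X gene in the summed P2X TPM (vertical axis, per cent) of each rat. P2rx4 fills 50.0% to 57.1% of the bar in SHR and 25.7% to 46.8% in Wistar, and P2rx6 fills 12.5% to 15.0% in SHR and 22.2% to 32.7% in Wistar.

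The other genes of nucleotide signalling were taken from 6 lists with 41 genes, of which 38 were tested, as 40 records. None was called by edgeR, in either direction. At an unadjusted p under 0.05 there were 7 of 40 records (2301 of all 13659), and the smallest adjusted p was 0.0936. The median log2 fold change of the 40 records was 0.03. DESeq2 called 3 of them, beside 5.23% of all records, and 4 with the length offset, beside 6.26%. Those 4, named after their values were seen, were P2ry6 (0.32, adjusted p = 0.0459), Acpp (0.56, 0.0362), Enpp3 (-0.66, 0.0345) and Adora1 (-0.98, 0.0284), as log2 fold changes and adjusted p by DESeq2 with the length offset.

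P2ry6, the UDP receptor, had the highest level of the other P2Y receptors, at 22.3 ± 1.16 TPM for Wistar and 27.8 ± 2.45 for SHR (SD over 4 rats), with a log2 fold change of 0.32 and an edgeR adjusted p of 0.0936. P2ry12, the ADP receptor of microglia and platelets, also named after its values were seen, was at 7.19 ± 3.22 and 13.6 ± 1.71 TPM (log2 fold change 0.96, edgeR adjusted p = 0.184). Neither overlapped between the strains, beside 10.6% of all tested records that did not overlap, and neither passed. Their level was above that of P2ry1 and P2ry2 in both strains.

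For release, degradation and signalling, the member of each list with the highest level is given as mean TPM of the Wistar rats and of the SHR (SD over 4 rats). Gja1, the gap junction protein connexin 43 that can pass ATP as a hemichannel, was at 13.96 ± 5.07 and 9.11 ± 4.41 TPM. Entpd2, an enzyme that removes ATP at the cell surface, was at 342 ± 54.0 and 327 ± 25.6 TPM, far above any P2 receptor. Adk, which phosphorylates adenosine, was at 173 ± 4.25 and 186 ± 15.7 TPM, and Plcb4, a phospholipase C downstream of Gq, was at 101 ± 11.6 and 88.7 ± 22.3 TPM. Il18, a cytokine processed by the inflammasome downstream of P2X7, was at 156 ± 9.06 and 195 ± 11.6 TPM (edgeR adjusted p = 0.199). The median log2 fold changes were 0.21 for the other P2Y receptors, -0.02 for ATP storage and release, 0.03 for nucleotide breakdown, -0.02 for the adenosine genes, -0.09 for Gq signalling and 0.35 for the inflammasome genes.

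Markers of the cell types in the ganglion were read from the same data. Sympathetic neuron markers (9 of 10 matched, none called) added up to 35260 to 40580 TPM in Wistar and 35575 to 41635 in SHR, and were thus abundant in every library of the labelled tissue. Sensory neuron markers, listed because P2X3 is typical of such neurons, (7 of 8 matched) added up to 738 to 904 TPM in Wistar and 357 to 493 in SHR, with 2 of 6 tested genes (Avil and 1 record of Calca) lower in SHR, beside 1.69% of all tested records, and none higher. Nearly all of this sum was Avil (799 ± 64.9 and 395 ± 65.8 TPM, SD over 4 rats each), and the nociceptor genes Scn10a, Scn11a and Mrgprd were under 0.5 TPM in every rat. Drgx, Trpv1 and Scn11a had log2 fold changes of 0.36, 0.25 and 0.21 and did not pass. The part of sensory neurons in the difference of the P2rx3 record was not tested.

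Macrophage markers (8 of 8 matched, none called) ranged from 91.8 to 146 TPM in Wistar and from 48.2 to 194 in SHR. In SHR replicates 1 to 4 the sums were 194, 170, 48.2 and 62.2, and the normalised counts of P2rx4 were 1573, 1686, 1435 and 1501. In Wistar replicates 1 to 4 the sums were 122, 121, 146 and 91.8, and P2rx4 was 649, 619, 1464 and 645. Satellite glia markers ranged from 851 to 1572 TPM in Wistar and 801 to 1082 in SHR, with 1 record of 1 of the 8 genes higher in SHR, beside 1.16% of all tested records, and Schwann cell myelin markers from 1887 to 2276 and 1669 to 2221 with none called. The called record was NM_001270684 of Apoe, whose most abundant record NM_138828 had a log2 fold change of -0.99 without passing. Summed over its 5 records, Apoe was at 207, 253, 658 and 1005 TPM in Wistar replicates 1 to 4 and 541, 262, 340 and 408 in SHR replicates 1 to 4, with overlap. Endothelial markers ranged from 32.4 to 53.7 and 29.1 to 46.9 TPM, with 1 record of 1 of the 7 genes (Flt1) higher, beside 1.16% of all tested records. The other, more abundant Flt1 record did not pass (log2 fold change 0.60, edgeR adjusted p = 0.0827). Smooth muscle markers ranged from 74.8 to 150 and 39.1 to 152 TPM. Fibroblast markers ranged from 735 to 1266 and 490 to 1535 TPM, and blood cell markers from 29.2 to 92.7 and 19.1 to 143 (lymphocyte, mast cell and platelet) and from 3172 to 9633 and 429 to 8563 (red blood cell). Adipocyte markers ranged from 7.88 to 65.3 and 6.57 to 150 TPM and striated muscle from 42.1 to 54.2 and 49.5 to 58.4, with none called in these last 6 lists. The part of these cell types in the P2 receptor differences was not tested.

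The tested records whose log2 CPM (count scaled by library size) followed the called receptors most closely over the 8 rats are given as a description, and all points share the same libraries and the same strain difference. For P2rx3 they were Magix (Pearson r = 0.964), Lynx1 (0.963) and the Apoe record NM_001270684 (0.958), out of 13658 records. For P2rx6 they were Rexo4 (0.960), Cdh17 (0.960) and Perp (0.958).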

How the data were processed

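RNA of 8 right stellate ganglia was sequenced as read pairs. For the library the labels name a TruSeq stranded kit, whereas the study's methods name SMARTer amplification, and the extraction kits (Micro, RNeasy Mini) differ too. The authors quantified the reads with Salmon 0.8.2 in stranded mode against rat RefSeq transcripts of rn6, with GC and positional bias correction. The deposited values are an estimated count and a TPM for each record. Salmon divides reads that fit several records among them, and the counts were not normalised between samples.

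The estimated counts were rounded and tested with edgeR 4.0.16 (TMM, filterByExpr, glmQLFit, glmQLFTest) in R 4.3.3 over all 13659 records that passed the filter, with strain as the only term and a Benjamini-Hochberg threshold of 0.05. Counts divided by effective library size and multiplied by its mean over the rats are called normalised counts. SE was derived from the log2 fold change and its F statistic (change over root F). The fit was tested on simulated data. Log2 CPM used a prior count of 2. Of the 18314 records, 17360 matched a gene name. Alternatives were DESeq2 1.42.0, length offsets, other scaling and filters, records summed to genes, a replicate block and leaving out each rat. All 9 receptors were named, with any pathway gene past the threshold, the most abundant gene of each pathway list and the 3 records most like each called receptor. The members and lists were chosen with earlier results of these data known.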

Additional observations from a re-analysis of the deposited data

Results flagged for a closer look

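P2rx4 in Wistar replicate 3, with a normalised count of 1464, stood apart from the other 3 Wistar rats, which lay between 619 and 649. Its gap to the nearest of them, as a share of the range of the group, exceeded the 95% critical value of Dixon's test for 4 samples. It was the only such value among 18 groups of 4 rats (9 receptors in each strain), where 0.9 is expected by chance. The value lay within the SHR range of 1435 to 1686.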

How the results depend on the processing

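The direction of P2rx3, P2rx4, P2rx6 and P2rx7 was kept under every alternative run, and P2rx3 passed in 11, P2rx6 in 10 and P2rx4 in 4 of 17 alternatives. Their adjusted p ranged from 5.8e-06 to 0.0999, from 0.0005 to 0.133 and from 0.00064 to 0.296. DESeq2 called 782 records (353 higher and 429 lower in SHR), 851 with the length offset (377 and 474) and, with that offset on records summed to genes, chosen after seeing the data, 777 (352 and 425), against 389 (158 and 231) by edgeR. By edgeR on records summed to genes, 1 receptor passed. Without each rat in turn, 237 to 454 records passed, 92 to 198 higher and 136 to 256 lower, and 0 to 2 receptors. The count of receptors fell to 0 without Wistar replicate 4, SHR replicate 2 or SHR replicate 3 and to 1 without Wistar replicate 1, Wistar replicate 3 (where it was P2rx4) or SHR replicate 4. With the replicate number as a block, 132 records (44 and 88) and 0 receptors passed, with log2 fold changes of 1.84 for P2rx3 (adjusted p = 0.0771) and -0.62 for P2rx6 (0.133). P2rx1 was then at -0.30, a reversal. Deviations of same-numbered rats from their strain means had correlations of -0.29, -0.12, -0.16 and -0.04, beside a mean of 0.05 for other pairs. With strains of 4 rats these values cannot decide whether the numbers pair the rats. The direction also reversed for some receptors that never passed when a rat was left out. P2rx1 ranged from -1.07 to 0.70 (-0.14 without Wistar replicate 4), P2rx2 from -0.37 to 0.015, P2ry1 from -0.30 to 0.033 and P2ry2 from -0.40 to 0.14 (0.07 without Wistar replicate 2 and 0.06 without SHR replicate 4). The cause was not tested in any of these. P2rx1 could not be tested with at least 10 counts in every rat. With levels per length from TMM-scaled counts in place of TPM, the log2 ratio of SHR to Wistar mean levels moved by less than the spread between rats for each of the 9 receptors.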
